A study of Mus musculus with 8 samples.

Results

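HIF-1α is the oxygen-regulated subunit of hypoxia-inducible factor 1, and 6 genes of its control were followed here in mouse ovarian tumours under VEGF blockade. They are *Hif1a* itself, *Hif1an*, *Vhl*, *Eloc*, *Cited2* and *Cops5*, chosen by name with earlier results of these data known. Each was represented by a single probe set, among 11667 genes with 1 gene symbol. The 8 arrays comprised 4 of tumours exposed to anti-VEGF antibody and 4 of control tumours exposed to rat IgG. All tumours grew from HM-1 cells, an ovarian cancer line of the mouse, placed under the skin of B6C3F1 mice. Antibody or IgG was given into the peritoneum from day 3 after injection until the end, and tumours were taken once their long diameter reached 1.5 cm. The start day is that of the labels, and the methods of the study give a later one. The labels give no age and do not tie a tumour to a cage, litter or day. Whole tumours were measured, so a change in the share of a cell type and a change in RNA per cell cannot be told apart.

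In oxygenated cells, prolyl hydroxylases mark HIF-1α for the VHL ubiquitin ligase, which leads to its destruction, and the asparagine hydroxylase encoded by *Hif1an* (factor inhibiting HIF, FIH) blocks its contact with the coactivators p300 and CBP. Both kinds of enzyme need oxygen, so that HIF-1α accumulates and acts in poorly perfused tumour. Most of this control acts on the protein, whereas the arrays measured RNA.

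The arrays differed in spread, and this touches every value below. The standard deviation over genes of the deposited log2 values was 1.99 to 2.08 on the anti-VEGF arrays and 1.12 to 1.66 on the control arrays. Robust multi-array average normalisation, named as the source of these values, usually gives all arrays the same distribution, and why the deposited arrays differ is not given in the sources used here. Bright genes were therefore higher and dim genes lower with anti-VEGF antibody, and the log2 fold change had a median of 0.60 in the 3889 brightest genes, -1.07 in the 3889 dimmest and -0.44 overall. Control array 3 stood apart, with the lowest mean correlation with the other arrays (Pearson r = 0.82) and the narrowest spread. All 25 measured markers of the enzyme-secreting acinar cells of the pancreas were lower with anti-VEGF antibody, and their mean log2 level was 4.20 to 8.96 on the anti-VEGF arrays and 8.73 to 10.31 on the control arrays. Anti-VEGF array 1 held the value of 8.96. Of the 7 measured tumour epithelial markers, among them *Msln* and *Krt8*, 4 rose and none fell, with mean log2 levels of 7.72 to 8.07 and 7.13 to 7.78. Of 14 leukocyte markers 8 rose and 3 fell, and their mean log2 level was 6.04 to 6.35 on anti-VEGF arrays and 5.15 to 5.82 on control arrays. No endothelial marker of 7 was called. The mean log2 level was 5.97 to 7.16 and 5.01 to 6.83 for 2 fibroblast markers, of which 1 rose, and 4.74 to 4.98 and 5.08 to 5.37 for 8 muscle markers, of which 4 fell. It was 4.68 to 4.85 and 4.80 to 5.39 for 6 skin markers, of which 1 fell, and 4.01 to 4.33 and 4.51 to 5.12 for 6 adipocyte markers, of which 4 fell. No measured marker was listed at 0. The part of spread and cell composition in the results was not tested. Changes are therefore given both on the deposited scale and relative to genes of the same level.

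All 6 genes rose with anti-VEGF antibody on the deposited scale, with log2 fold changes of 0.58 (*Vhl*) to 1.72 (*Hif1a*), and the *Cited2* value was negative under 1 of the other scalings. The share of all genes called higher was 19.1% and the share called lower was 46.6%, at a limma adjusted p under 0.05. Among the 500 genes nearest in mean level the share called higher was much larger for most members, at 70.4% around *Hif1a*, 19.2% around *Hif1an*, 40.2% around *Vhl*, 68.0% around *Eloc*, 65.4% around *Cited2* and 55.2% around *Cops5*. In 5 of the 6 genes, *Vhl* being the exception, every anti-VEGF array lay above every control array, which held for 19.8% of all genes, with 41.5% entirely below. When each array was centred on the running median of 501 genes of like level, called level centring below, *Hif1an* (1.11), *Cops5* (0.80) and *Hif1a* (0.72) were still called higher and the other 3 were not, against 11.5% of all genes higher and 8.81% lower. Level centring was chosen after seeing the data. After quantile normalisation of the arrays, *Hif1a* and *Hif1an* were called, against 7.40% of all genes higher and 4.41% lower. After scaling of each array to a common median and spread, *Hif1an* alone was called. The share of all genes called under that scaling was not computed.

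**Figure D1:**
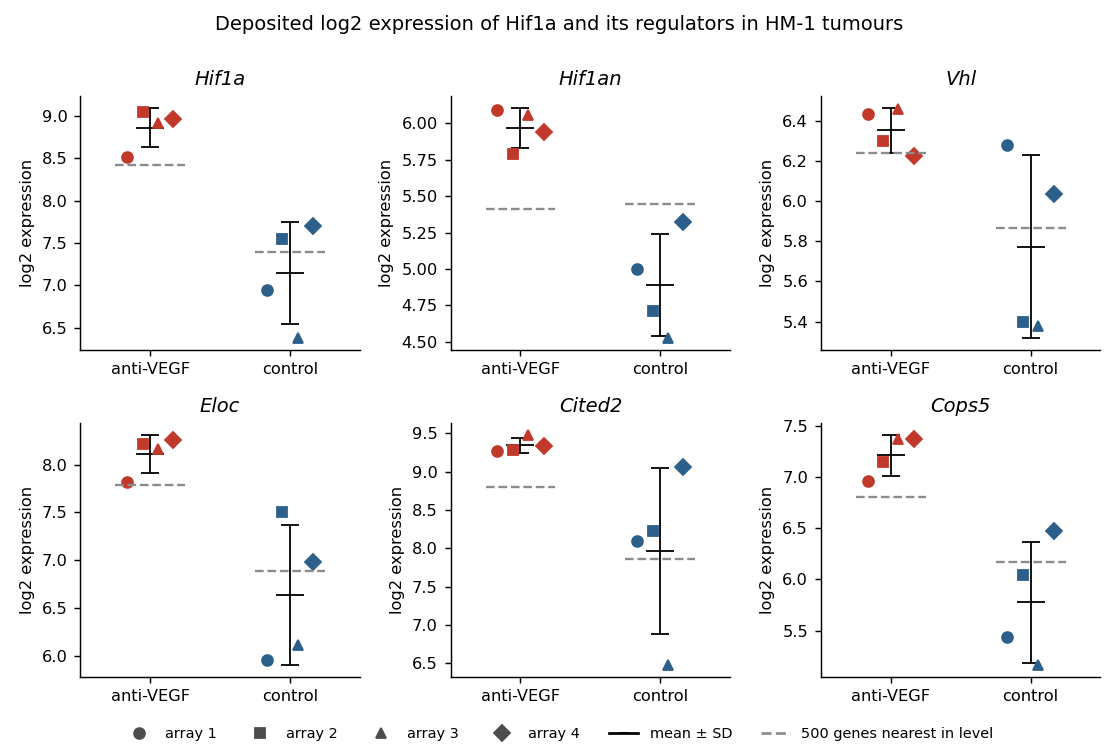
Deposited log2 expression of the 6 genes on each of 4 anti-VEGF arrays (red) and 4 control arrays (blue), with the mean and SD in black and, dashed, the mean over the arrays of a group of the median of the 500 genes nearest in level. For *Hif1an* the dashed line is almost level between the groups, and for *Hif1a*, *Eloc* and *Cited2* it is higher with anti-VEGF antibody, as the genes are (on this scale).

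*Hif1a*, the oxygen-regulated subunit that pairs with ARNT to bind DNA, had a log2 expression of 8.52, 9.04, 8.91 and 8.96 on anti-VEGF arrays 1 to 4 and 6.95, 7.55, 6.38 and 7.70 on control arrays 1 to 4. The groups did not overlap, and the lowest anti-VEGF value was 0.82 above the highest control value. The log2 fold change was 1.72 (95% confidence interval 1.10 to 2.34, limma adjusted p = 0.00135), a 3.29-fold difference. *Hif1a* was also a bright gene, with a mean level above that of 95.4% of genes, and the log2 fold change of its 500 neighbours in level had a median of 1.03 (quartiles 0.61 and 1.42). Of those neighbours 53 had a larger value than *Hif1a*. Relative to the median of the neighbours on the same array, *Hif1a* stood at 0.20, 0.63, 0.45 and 0.49 on the anti-VEGF arrays and at -0.57, -0.17, -0.080 and -0.19 on the control arrays. It was thus above its neighbours in each treated tumour and below them in each control tumour. The level-centred log2 fold change was 0.72 (95% confidence interval 0.38 to 1.06, limma adjusted p = 0.0142). When each array was scaled to the same median and median absolute deviation (MAD), it was 0.52 and not called (limma adjusted p = 0.106).

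The *Hif1a* promoter is shown because *Hif1a* had the largest change of the 6 genes on the deposited scale, and because hypoxia response elements, to which HIF-1 binds, can be looked for in it. It is the RefSeq window of 300 bases (GRCm38.p6, chr12:73907617-73907916, plus strand, 5′ to 3′), which covers 250 bases before the start site and 50 after it, with the letters ACGTG and GCGTG on either strand in capitals:
Hif1a promoter: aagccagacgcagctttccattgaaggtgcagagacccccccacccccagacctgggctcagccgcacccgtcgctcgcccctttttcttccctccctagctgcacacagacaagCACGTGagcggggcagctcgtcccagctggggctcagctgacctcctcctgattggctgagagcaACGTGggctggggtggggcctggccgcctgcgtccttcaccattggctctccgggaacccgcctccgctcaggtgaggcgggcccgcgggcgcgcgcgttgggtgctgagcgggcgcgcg
The window held ACGTG 3 times, a pair of them overlapping on opposite strands at positions -135 and -134 from the start site and another at -70, and GCGTG 0 times. ACGTG was present in 19.6% and GCGTG in 32.4% of the 32851 RefSeq promoter windows of the same length. Either was present in 43.8%. With 69.3% G and C the window was richer than the median promoter (52.7%). It held 25 CG dinucleotides, against a median of 7, and both sequences of letters contain CG. The shares are thus over promoters that were mostly poorer in CG. Windows were matched for 4 of the 6 genes, and those of *Hif1an* and *Vhl* held neither sequence of letters.

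*Hif1an* encodes FIH, the oxygen-dependent inhibitor of HIF-1α activity. Its log2 expression was 6.09, 5.79, 6.06 and 5.94 on anti-VEGF arrays 1 to 4 and 4.998, 4.71, 4.53 and 5.32 on control arrays 1 to 4. No control array reached the lowest anti-VEGF array, and the gap was 0.46. The log2 fold change was 1.08 (95% confidence interval 0.64 to 1.52, limma adjusted p = 0.00196), a 2.11-fold difference. This was a gene of middle level, above 63.8% of genes, and the log2 fold change of its 500 neighbours had a median of -0.066 (quartiles -0.39 and 0.36). Only 21 of the 500 had a larger value. Relative to the neighbours, *Hif1an* stood at 0.63, 0.41, 0.66 and 0.53 on the anti-VEGF arrays and at -0.67, -0.73, -0.69 and -0.13 on the control arrays. *Hif1an* thus had the smallest change but 1 on the deposited scale and the largest of the 6 after level centring, at 1.11 (95% confidence interval 0.77 to 1.45, limma adjusted p = 0.00618). It was the only member called on the deposited scale and under each of the 5 other scalings, with log2 fold changes of 1.08 to 1.47.

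**Figure D2:**
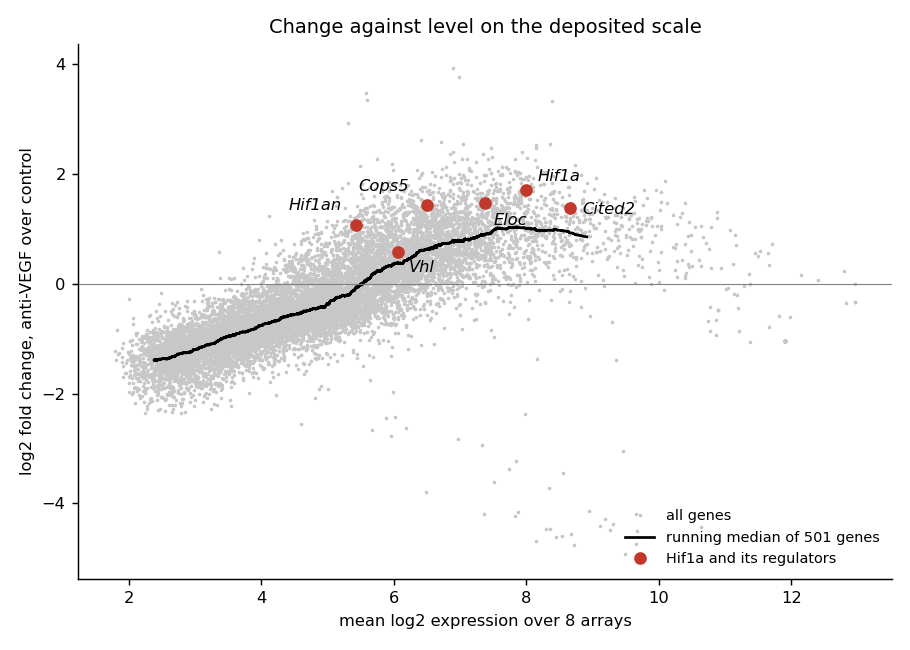
Log2 fold change of anti-VEGF over control (vertical axis) against the mean log2 expression over 8 arrays (horizontal axis) for 11667 genes in grey, with the running median of 501 genes as a black line and the 6 genes in red. The line climbs with level and flattens among the brightest genes, *Hif1an* lies 1.14 above the median of its 500 neighbours and *Vhl* only 0.20 above that of its own.

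*Vhl* and *Eloc* encode parts of the ligase that binds hydroxylated HIF-1α, with the VHL protein as the substrate receptor and elongin C as the adaptor that joins it to the cullin. *Vhl* had a log2 expression of 6.43, 6.30, 6.46 and 6.22 on anti-VEGF arrays 1 to 4 and 6.28, 5.40, 5.38 and 6.04 on control arrays 1 to 4. Control array 1 lay above anti-VEGF array 4, so the groups overlapped. The log2 fold change of 0.58 (95% confidence interval 0.082 to 1.08, limma adjusted p = 0.0417) was the smallest of the 6 genes. It was lost without any 1 anti-VEGF array or without control array 2 or 3 (log2 fold change 0.45 to 0.62, limma adjusted p 0.0685 to 0.107). The median was 0.38 among the 500 neighbours of *Vhl*, 165 of which had a larger value, and after level centring the value was 0.21 (95% confidence interval -0.17 to 0.59, limma adjusted p = 0.403). Relative to its neighbours *Vhl* stood at -0.037 to 0.20 on the anti-VEGF arrays and at 0.26, -0.54, -0.092 and -0.0049 on control arrays 1 to 4. Control array 1 thus lay above every treated tumour on that measure.

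*Eloc* had a log2 expression of 7.82, 8.22, 8.16 and 8.25 on anti-VEGF arrays 1 to 4 and 5.96, 7.51, 6.11 and 6.98 on control arrays 1 to 4. The groups did not overlap, although control array 2 came within 0.31 of anti-VEGF array 1. The log2 fold change was 1.47 (95% confidence interval 0.77 to 2.17, limma adjusted p = 0.00347), beside a median of 0.89 among the 500 neighbours. After level centring it was 0.57 (95% confidence interval -0.051 to 1.20, limma adjusted p = 0.167), and without control array 1 it was 0.21 (limma adjusted p = 0.437). Relative to its neighbours *Eloc* stood at 0.071 to 0.45 on the anti-VEGF arrays and at -1.06, 0.35, 0.045 and -0.34 on control arrays 1 to 4. The groups overlapped on that measure, since control array 2 lay among the treated tumours.

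*Cited2* is itself induced by HIF and encodes a protein that competes with HIF-1α for p300 and CBP. It was the brightest of the 6 genes, with a log2 expression of 9.27, 9.29, 9.48 and 9.33 on anti-VEGF arrays 1 to 4 and 8.09, 8.23, 6.47 and 9.07 on control arrays 1 to 4. Control array 3 was far below and control array 4 close to the treated tumours. The SD was 0.096 over the anti-VEGF arrays and 1.08 over the control arrays, the widest ratio of the 6 genes. The log2 fold change was 1.38 (95% confidence interval 0.42 to 2.33, limma adjusted p = 0.0176), and without control array 3 it was 0.88 (limma adjusted p = 0.0077). The median was 0.97 among the 500 neighbours, 113 of which had a larger value. Relative to them *Cited2* stood at 0.48 to 0.65 on the anti-VEGF arrays and at 0.080, 0.015, -0.37 and 0.72 on control arrays 1 to 4. Control array 4 thus lay above every treated tumour on that measure. After level centring the value was 0.46 (95% confidence interval 0.0051 to 0.91, limma adjusted p = 0.133), and without control array 4 it was 0.64 and was called (limma adjusted p = 0.0148). After median and MAD scaling the value was -0.11 (limma adjusted p = 0.834). Negative values under that scaling were not peculiar to *Cited2*. Of the pathway lists below, the genes brighter than it were *Elob*, *Slc2a1*, *Pgk1* and *Pgam1*. They had -1.68, -0.48, -1.06 and -1.12, although all were called higher on the deposited scale.

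The *Cited2* promoter is shown as that of the member known as a HIF target (GRCm38.p6, chr10:17722978-17723277, plus strand, 5′ to 3′), with the same letters in capitals:
Cited2 promoter: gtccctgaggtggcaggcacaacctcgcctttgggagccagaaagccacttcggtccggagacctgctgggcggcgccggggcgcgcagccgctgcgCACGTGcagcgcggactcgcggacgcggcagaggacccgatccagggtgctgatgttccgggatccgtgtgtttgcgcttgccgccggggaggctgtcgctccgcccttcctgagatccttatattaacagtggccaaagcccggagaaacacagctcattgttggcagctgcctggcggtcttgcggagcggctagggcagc
ACGTG occurred 2 times, overlapping on opposite strands at positions -153 and -152 from the start site, and GCGTG 0 times. Both windows thus held the palindrome that these overlapping matches form. The *Cited2* window had 66.7% G and C and 29 CG dinucleotides, also above the promoter medians. The letters are a description of the window and show no binding.

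*Cops5* encodes the catalytic subunit of the COP9 signalosome, which removes NEDD8 from cullins, and its product also binds HIF-1α. It had a log2 expression of 6.96, 7.15, 7.38 and 7.38 on anti-VEGF arrays 1 to 4 and 5.44, 6.04, 5.16 and 6.47 on control arrays 1 to 4. The groups were 0.49 apart at their nearest values. The log2 fold change was 1.44 (95% confidence interval 0.83 to 2.04, limma adjusted p = 0.00214), beside a median of 0.63 (quartiles 0.30 and 1.04) among the 500 neighbours. A larger value was found in 29 of these neighbours. Relative to them *Cops5* stood at 0.17, 0.38, 0.55 and 0.55 on the anti-VEGF arrays and at -0.90, -0.26, -0.41 and 0.010 on the control arrays. The level-centred log2 fold change was 0.80 (95% confidence interval 0.36 to 1.24, limma adjusted p = 0.0224), and it missed the threshold without anti-VEGF array 2, 3 or 4 (limma adjusted p 0.0553 to 0.0639). After quantile normalisation *Cops5* just missed it, with a log2 fold change of 1.10 (limma adjusted p = 0.0506).

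**Figure D3:**
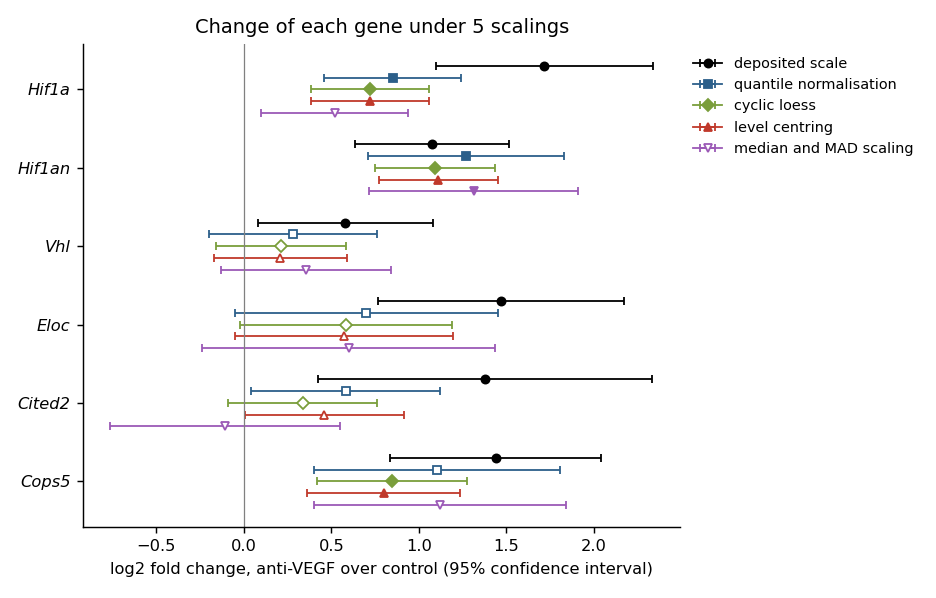
Log2 fold change of anti-VEGF over control with 95% confidence intervals for each gene on the deposited scale and under 4 other scalings, with filled symbols for a limma adjusted p under 0.05. *Hif1an* keeps a value of 1.08 or more throughout, whereas *Cited2* covers 1.38 on the deposited scale to -0.11 after median and MAD scaling.

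On the deposited scale the control arrays varied more than the anti-VEGF arrays in every member. The SD of the control arrays was 2.53 (*Hif1an*) to 11.3 (*Cited2*) times that of the anti-VEGF arrays. Genes of like level moved with the arrays too. The median of the 500 neighbours of *Hif1a* was 7.52, 7.72, 6.46 and 7.89 on control arrays 1 to 4, and 8.32 to 8.48 on the anti-VEGF arrays. The share of all genes with a larger SD in controls was not computed. Control array 3, whose spread was the narrowest, was the lowest control array for all members except *Eloc*, and control array 4, whose spread was the widest of the controls, was the highest for *Hif1a*, *Hif1an*, *Cited2* and *Cops5*. Among the treated tumours anti-VEGF array 1, with the highest acinar level of its group, was the lowest for *Hif1a*, *Eloc*, *Cited2* and *Cops5* and the highest for *Hif1an*. Without control array 3 and anti-VEGF array 1 together, the log2 fold change was 1.58 for *Hif1a*, 0.92 for *Hif1an*, 1.39 for *Eloc*, 0.90 for *Cited2* and 1.32 for *Cops5*, all still called by limma, and 0.42 for *Vhl* (limma adjusted p = 0.133).

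The rank of a gene within its own array is unchanged by a stretch of that array that keeps the order of its values. Whether other differences between the arrays moved the ranks was not tested. *Hif1an* ranked above 73.3%, 69.4%, 72.6% and 70.9% of genes on anti-VEGF arrays 1 to 4 and above 44.8%, 43.9%, 31.2% and 61.2% on control arrays 1 to 4. *Cops5* ranked above 84.0% to 87.8% of genes on the anti-VEGF arrays and 58.1% to 82.0% on the control arrays. *Hif1a* ranked above 95.8% to 97.2% and 90.0% to 94.0%. These 3 genes had ranks that did not overlap between the groups, with differences in mean rank of 26.3, 17.2 and 3.85 percentage points and a two-sided exact permutation p of 0.0286 each, the smallest that 4 arrays against 4 allow. Without any 1 anti-VEGF array the exact permutation p was 0.0571 for *Hif1an* and 0.0857 for *Cops5*, and it stayed at 0.0286 for *Hif1a*. The ranks of the other members overlapped. *Eloc* ranked above 92.1% to 93.9% of genes with anti-VEGF antibody and 72.7% to 93.8% in controls (exact permutation p = 0.0857), *Cited2* above 97.6% to 97.9% and 93.8% to 97.7% (exact permutation p = 0.114), and *Vhl* above 74.7% to 77.8% and 62.6% to 79.9% (exact permutation p = 0.314). These 6 tests were not adjusted for their number. The share of all genes whose ranks did not overlap between the groups was not computed, so these results have no background to be read against. *Cited2* and *Hif1a* stood so near the top that their ranks had little room to move.

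**Figure D4:**
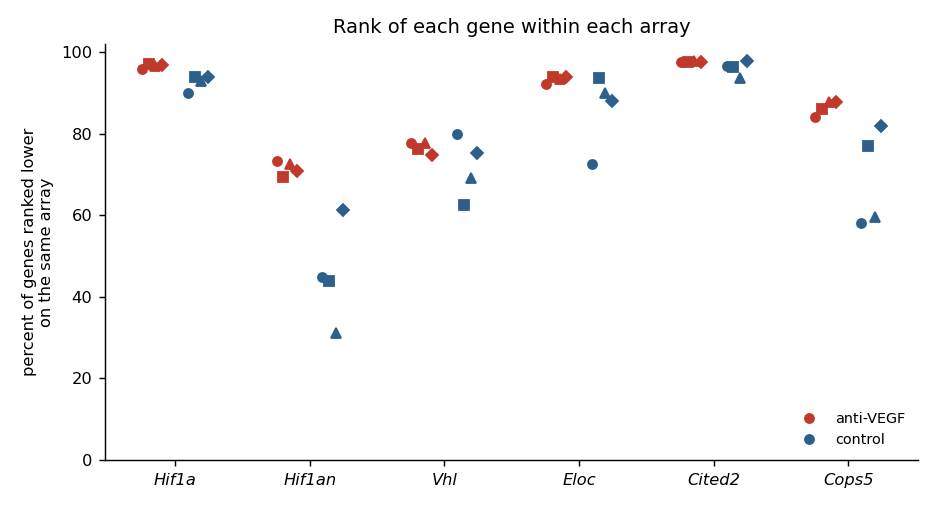
Percent of genes ranked lower on the same array (vertical axis) for each gene, with 4 anti-VEGF arrays in red left of 4 control arrays in blue. The groups are apart for *Hif1a*, *Hif1an* and *Cops5*, with the widest step for *Hif1an*, and overlap for *Vhl*, *Eloc* and *Cited2*.

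Whether *Hif1a* changed by more than its regulators was tested on the difference of their log2 values within each array. On the deposited scale the change of *Hif1a* was larger by 1.14 than that of *Vhl*, by 0.64 than that of *Hif1an*, by 0.34 than that of *Cited2*, by 0.28 than that of *Cops5* and by 0.25 than that of *Eloc*. The two-sided exact permutation p was 0.0571, 0.0571, 0.343, 0.0286 and 0.343 in that order, for 5 tests that were not adjusted. The value for *Cops5* had an exact permutation p of 0.0857 to 0.143 without any 1 anti-VEGF array and 0.0571 without control array 3 or 4. With 1 array left out the value for *Eloc* was as low as 0.092 (without control array 2) and as high as 0.41 (without control array 1), and that for *Cited2* as low as 0.16 (without control array 4) and as high as 0.58 (without control array 3). The sign depended on the scaling for *Hif1an*, *Cops5* and *Eloc*. For *Vhl* the sign stayed but the size did not. The difference was 0.57 after quantile normalisation and 0.51 after cyclic loess (exact permutation p = 0.114 each). It was 0.16 after median and MAD scaling (exact permutation p = 0.714). For *Cited2* it was 0.27, 0.38 and 0.63 in that order of scalings. After quantile normalisation the change of *Hif1a* differed from that of *Hif1an* by -0.42 (exact permutation p = 0.257) and from that of *Cops5* by -0.25 (exact permutation p = 0.343), and after median and MAD scaling by -0.79 (exact permutation p = 0.0286) and -0.60 (exact permutation p = 0.0571). 

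The genes most like a member were sought by the root mean square difference over the 8 arrays, each gene being centred on its own mean. For *Hif1a* these were *Myo1e*, which encodes an unconventional myosin (difference 0.068 on the log2 scale), *Fbxo11*, an F-box protein of a ubiquitin ligase (0.081), and *Qrich1* (0.083). For the others they were *Kif13a*, a kinesin (0.091), for *Hif1an*, the sterol sensor partner *Insig1* (0.097) for *Vhl*, the ubiquitin-conjugating enzyme *Ube2n* (0.136) for *Eloc*, *Gm6988* (0.097) for *Cited2* and the glutaredoxin *Glrx* (0.092) for *Cops5*. The members lay farther from each other, which followed largely from the search, since the named genes were picked as the nearest of all genes. Distances between members ran from 0.202 (*Hif1a* and *Cops5*) to 0.776 (*Vhl* and *Eloc*). Around each member but *Vhl*, all the other members lay nearer than most genes. Around *Vhl* only *Hif1an* and *Cops5* did. All these profiles share the same 8 arrays and their spread.

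Around the 6 genes, 7 lists of the pathway held 140 genes, of which 50 were measured. On the deposited scale 33 of the 50 rose and 3 fell, with a median log2 fold change of 0.83, beside -0.44 for all genes, of which 19.1% were called higher and 46.6% lower. The pathway genes were bright, with 40 of the 50 among the 3889 brightest genes, of which 51.3% were called higher and 4.55% lower. After level centring 14 of the 50 were higher and 3 lower, with a median of 0.19 beside -0.0094 for all genes, of which 11.5% were called higher and 8.81% lower. The lists were chosen with earlier results of these data known, and the members are part of these counts. The 3 that fell were *Cited1*, *Cited4* and the erythropoietin gene *Epo*, and the 3 lower after level centring were *Cdc34*, *Cited1* and *Bhlhe40*, which encodes a transcriptional repressor. Of the 3 that fell only *Cited1* was called lower in all 8 fits with an array left out and with the replicate number as a block, and *Cited4* was called in 1 and *Epo* in 2 of the 8 and neither with the block. None of the 3 was called after median centring. Without the 6 members, 27 of 44 rose and 3 fell on the deposited scale.

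Among the HIF subunits, *Hif3a*, whose product can restrain the other HIFs, had a log2 expression of 5.69 ± 0.24 with anti-VEGF antibody and 5.69 ± 0.19 in controls (SD, n = 4 each), a log2 fold change of -0.0021 (limma adjusted p = 0.992). *Epas1*, *Arnt* and *Arnt2* were not analysed here. Of 7 oxygen-dependent hydroxylases, *Hif1an* and *Egln3* rose on the deposited scale, on which 19.1% of all genes were called higher. *Egln3*, a prolyl hydroxylase of HIF-1α that HIF induces, had a log2 fold change of 0.48 (limma adjusted p = 0.034), and 0.14 after level centring (limma adjusted p = 0.573). After level centring 4 of the 7 were called higher, against 11.5% of all genes. They were *Hif1an*, the ribosomal oxygenase gene *Riox1* (1.28, limma adjusted p = 0.0266), *Kdm8* (0.48, limma adjusted p = 0.0329) and *Jmjd4* (0.42, limma adjusted p = 0.0172). On the deposited scale the last 3 had 0.48, 0.29 and 0.26, with limma adjusted p of 0.169, 0.188 and 0.164. *Riox1* was dim, at 4.14 ± 0.54 with anti-VEGF antibody and 3.66 ± 0.44 in controls (SD, n = 4 each). Its groups overlapped on that scale, as did those of *Kdm8*. After quantile normalisation 2 of the 7 were called, *Hif1an* and *Riox1*, against 7.40% of all genes. *Jmjd4* and *Kdm8* were not (limma adjusted p = 0.0688 and 0.0813). After median and MAD scaling *Riox1*, *Jmjd4* and *Kdm8* were not called (limma adjusted p = 0.0510, 0.0783 and 0.0943). Like FIH, the products of *Riox1*, *Kdm8*, *Jmjd4* and *Jmjd6* are JmjC oxygenases. *Jmjd6*, a lysyl hydroxylase (0.46 deposited and -0.19 level-centred), and *P4htm*, a prolyl hydroxylase of the endoplasmic reticulum (-0.34 and 0.13), were called on neither scale. *Egln1* and *Egln2* were not analysed here.

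The 5 measured genes of the VHL ligase and its ubiquitin-conjugating enzymes were all among the 3889 brightest genes. Of those bright genes 51.3% were called higher and 4.55% lower on the deposited scale. Of the 5 ligase genes 4 rose and none fell on that scale. Beside *Vhl* and *Eloc* these were *Ube2d2a*, a ubiquitin-conjugating enzyme (1.25, limma adjusted p = 0.0107), and *Elob*, the partner of elongin C (0.57, limma adjusted p = 0.0446). After level centring they had 0.26 and -0.33, and neither was called (limma adjusted p = 0.320 and 0.239). *Cdc34*, another ubiquitin-conjugating enzyme, had 0.15 on the deposited scale (limma adjusted p = 0.591), but was lower after level centring (-0.68, limma adjusted p = 0.0127) and after quantile normalisation (-0.64, limma adjusted p = 0.0341).

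*Cited1*, which like *Cited2* encodes a binder of p300 and CBP, had a log2 expression of 5.17 ± 0.19 with anti-VEGF antibody and 5.89 ± 0.38 in controls (SD, n = 4 each). Its log2 fold change was -0.72 (limma adjusted p = 0.0136), and -0.74 after level centring (limma adjusted p = 0.0135). It was negative under each scaling tried, and after median centring of the arrays it was -0.33 and no longer called (limma adjusted p = 0.106). *Cited4* also fell, by 0.51 (limma adjusted p = 0.0377), and had -0.40 after level centring (limma adjusted p = 0.189). The coactivator gene *Ncoa1* rose by 1.15 (limma adjusted p = 0.00122) and was called after level centring (0.48, limma adjusted p = 0.0265). *Crebbp*, which encodes CBP, rose by 1.51 (limma adjusted p = 0.00259) and had 0.48 after level centring (limma adjusted p = 0.0737).

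All 7 measured genes of the COP9 signalosome and of neddylation rose on the deposited scale, by 0.91 to 1.44, with *Cops5* the highest. All 7 were among the 3889 brightest genes, of which 51.3% were called higher. After level centring only *Cops5* and *Ube2f*, which encodes a NEDD8-conjugating enzyme, were called (0.90 for *Ube2f*, limma adjusted p = 0.0079). The other signalosome subunits *Cops4*, *Cops6* and *Cops8* had level-centred values of 0.18, 0.010 and 0.14, and *Nedd8* and the cullin exchange factor *Cand1* had 0.036 and 0.40. Of 5 other genes that act on the stability of HIF-1α, 4 were among the 3889 brightest genes and 3 rose on the deposited scale. Among these 3 were the deubiquitinase *Usp8* (1.17, limma adjusted p = 0.00352) and the proteasome factor *Psmd10* (0.75, limma adjusted p = 0.00388). None of the 5 was called after level centring.

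Genes induced by HIF numbered 19 on the arrays, of which 15 rose and 1 fell on the deposited scale, and 6 were higher and 1 lower after level centring. Of the 19, 17 were among the 3889 brightest genes, of which 51.3% were called higher and 4.55% lower on the deposited scale. Over all genes the shares after level centring were 11.5% and 8.81%. Those of smallest p on the deposited scale were the histone demethylase *Kdm3a* (1.69), the collagen lysyl hydroxylase *Plod2* (1.54), the protein-folding oxidase *Ero1a* (1.89) and the glycolytic enzyme *Pgk1* (1.20), with limma adjusted p of 0.000656, 0.000972, 0.00132 and 0.00163. After level centring they had 1.08, 0.89, 0.90 and 0.35, of which *Pgk1* was not called (limma adjusted p = 0.185). *Epo* fell by 0.49 on the deposited scale (limma adjusted p = 0.041) and had -0.036 after level centring. *Bhlhe40* had 0.43 on the deposited scale (limma adjusted p = 0.135) and was lower after level centring (-0.39, limma adjusted p = 0.0398).

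**Figure D5:**
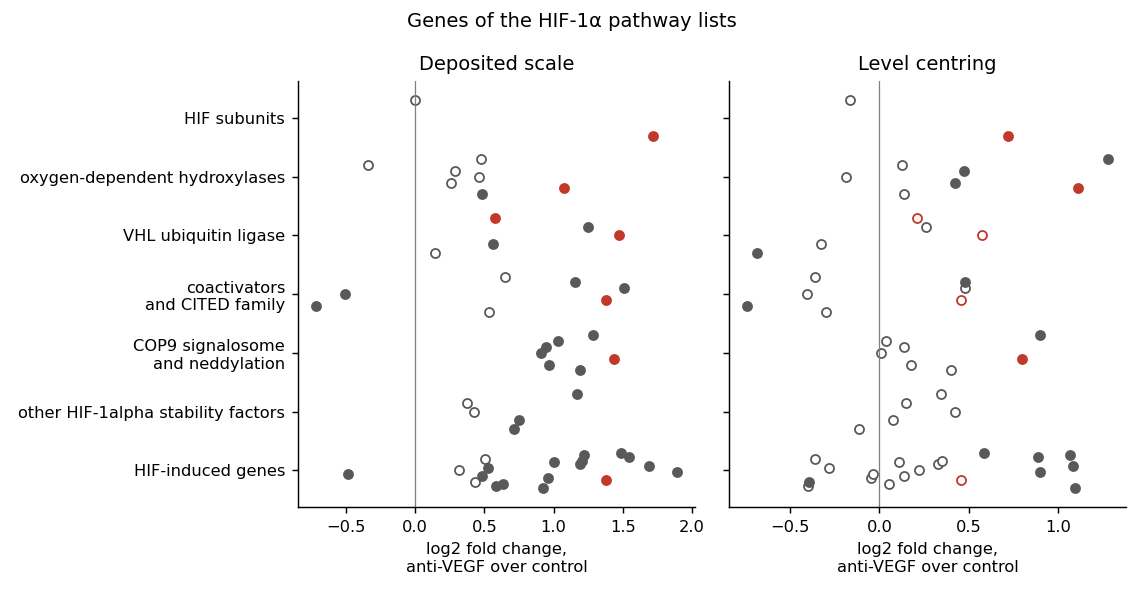
Log2 fold change of anti-VEGF over control for each measured gene of 7 pathway lists on the deposited scale (left) and after level centring (right), with the 6 genes in red, other genes in grey and filled symbols for a limma adjusted p under 0.05. On the left 33 of 50 genes are called higher, and on the right 14. Each gene is drawn in every list that holds it, so *Egln3* and *Cited2* recur, and the counts take every gene once.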

How the data were processed

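The 8 RNA samples, 4 from anti-VEGF and 4 from control tumours, were read on a mouse array by Affymetrix. Deposited were log2 values, which the authors had obtained with the robust multi-array average (RMA), and the submitters' processing notes also name Transcriptome Analysis Console. How the 13266 probe sets of the table were chosen is not given in the sources used here. Of these, 11743 had 1 gene symbol, 800 several and 723 none in the platform annotation, and 11595 of the first kind were found in the RefSeq gene table, by which no symbol changed. A gene was represented by its probe set of highest mean, which gave 11667 genes. Arrays give no counts, so their number limits the precision. All samples were used. That the tumours of a group came from separate mice is not stated in the labels, and p-values measure the spread between these samples.

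The test was limma (version 3.58.1, lmFit and eBayes, R 4.3.3) on treatment alone. Its p-values were adjusted by Benjamini-Hochberg across the 11667 genes and called under 0.05. For each member the 500 genes nearest in mean level over the 8 arrays stood beside it. Level centring subtracted from each array its running median over 501 genes ordered by mean level, before limma. Ranks and differences within an array were compared by exact permutation over all 70 assignments. The members and gene lists were chosen with earlier results of these data known. Named were the 6 members, all measured genes of 3 lists, the 4 of smallest p in each other list and the genes nearest in profile. Also named were *Cited4*, *Cops4*, *Cops6*, *Cops8*, *Epo*, *Bhlhe40*, *Ptgs2*, *Pgam1*, *Slc2a1* and *Sat2*, added after their values were seen. Tried were 4 other scalings planned at the start, filters on dim genes, the mean of all probe sets, eBayes with trend and robust, array weights, a 2-fold threshold, a replicate block and each array left out. Level centring and the omission of control array 3 with anti-VEGF array 1 were added after seeing the data. Promoter windows and symbols are from RefSeq (GRCm38.p6). Plots used matplotlib 3.10.9 (Python 3.11.15).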

Additional observations from a re-analysis of the deposited data

Results flagged for a closer look

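In each of the 50 measured pathway genes the 4 arrays of a group were searched for an array whose gap to the nearest other array took up most of the range of the group. This was so in 8 of 100 groups, and chance alone would give it in about 5% of groups of normally distributed values. None of the 8 concerned the 6 genes of the report.

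Anti-VEGF array 1 stood apart in 6 of the 8. It was higher than the others in *Jmjd6* (7.05 against a next value of 6.71, ratio of gap to range 0.875) and *P4htm* (4.77 and 4.51, ratio 0.849). It was lower in *Kdm8* (5.32 and 5.41, ratio 0.916), *Riox1* (3.34 and 4.28, ratio 0.834), the prostaglandin synthase gene *Ptgs2* (5.76 and 6.42, ratio 0.901) and the glycolytic gene *Pgam1* (9.67 and 9.96, ratio 0.836). Control array 3 was lower than the other controls in *Pgam1* (7.96 and 9.14, ratio 0.895) and *Sat2* (4.44 and 5.52, ratio 0.914). Anti-VEGF array 1 also had the highest pancreatic acinar level of its group and control array 3 the narrowest spread of all arrays, and their part in the gaps was not tested.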

How the results depend on the processing

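On the deposited scale *Hif1a*, *Hif1an*, *Eloc*, *Cited2* and *Cops5* were called with each array left out, with log2 fold changes of 1.46 to 1.90, 0.96 to 1.22, 1.24 to 1.76, 0.88 to 1.74 and 1.23 to 1.67. *Vhl* (0.45 to 0.75) was lost in 6 of 8 cases, and 5 to 6 members were called. The values after quantile normalisation, cyclic loess, level centring and median and MAD scaling were 0.28, 0.21, 0.21 and 0.35 for *Vhl*, 0.70, 0.58, 0.57 and 0.60 for *Eloc* and 0.58, 0.34, 0.46 and -0.11 for *Cited2*, none of them called. *Hif1a* was lost after median and MAD scaling (0.52, limma adjusted p = 0.106), and *Cops5* after that (1.12, limma adjusted p = 0.0547) and after quantile normalisation (1.10). The members called were 2, 3, 3 and 1 in that order of scalings, the pathway genes higher 11, 12, 14 and 7, against 33. Of all genes 7.40% were called higher after quantile normalisation and 11.5% after level centring. That share was not computed for cyclic loess or for median and MAD scaling. *Vhl* was also lost without genes below the median level (0.58, limma adjusted p = 0.0539) and without control array 3 and anti-VEGF array 1 (0.42). When a change of at least 2-fold was demanded (limma's treat), 0 members and 0 pathway genes in either direction were called at values of 1.72 for *Hif1a*, 1.08 for *Hif1an*, 0.58 for *Vhl*, 1.47 for *Eloc*, 1.38 for *Cited2* and 1.44 for *Cops5*. By limma without that demand, at an unadjusted p under 0.05, all 6 members passed. The share of all genes passing under either criterion was not computed. At the stricter adjusted p under 0.05, 19.1% of all genes were already called higher and 46.6% lower. Pathway genes lower were 0 after median centring, and 1 to 3 with an array left out, being 1 in 6 of the 8 cases. Pathway genes higher were then 28 to 35.

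Replicate numbers were not read as pairing, since deviations from the group means correlated between arrays of like number at 0.190, 0.126, -0.0367 and 0.163 and not every array matched its own number best. With the replicate block 6 members were called, and pathway genes lower were 1 in place of 3.

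After level centring with an array left out, the values were 0.59 to 0.80 for *Hif1a* and 1.00 to 1.26 for *Hif1an*, called each time, 0.59 to 0.94 for *Cops5*, 0.020 to 0.35 for *Vhl*, 0.21 to 0.76 for *Eloc* and 0.31 to 0.64 for *Cited2*, and 2 to 4 members were called. Differences in rank were then 2.94 to 4.27 percentage points for *Hif1a*, 21.6 to 31.6 for *Hif1an*, 1.89 to 7.66 for *Vhl*, 2.80 to 9.83 for *Eloc*, 0.80 to 2.12 for *Cited2* and 13.5 to 21.5 for *Cops5*. The change of *Hif1a* minus that of a regulator was 0.51 to 0.83 for *Hif1an*, 0.90 to 1.40 for *Vhl*, 0.092 to 0.41 for *Eloc*, 0.16 to 0.58 for *Cited2* and 0.19 to 0.33 for *Cops5*. It was -0.42, -0.37 and -0.79 for *Hif1an* and -0.25, -0.13 and -0.60 for *Cops5* after quantile normalisation, cyclic loess and median and MAD scaling, and -0.082 for *Eloc* after the last of these. For *Vhl* it was 0.57, 0.51 and 0.16 in the same order of scalings. With an anti-VEGF array left out the exact permutation p was 0.0571 for the rank of *Hif1an*, 0.0857 for that of *Cops5* and 0.0857 to 0.143 for *Hif1a* minus *Cops5*, which was 0.0571 without control array 3 or 4. It was 0.0286 for the rank of *Eloc* and for *Hif1a* minus *Vhl* without control array 2, and for the rank of *Cited2* without control array 4. The cause of these changes was not tested. Of 373 alternative values, 297 kept their direction and side of the threshold or, for a count, stayed within 1.5 times. Some of these had little room to change. Each member had a single probe set, and the filters on dim genes left the fold changes as they were. A value that was not called and stayed so, as for *Vhl* after level centring, also counts among the 297.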
